A study of Bos taurus with 12 samples.

Results

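The lysyl oxidases are a family of 5 genes, LOX and LOXL1 to LOXL4, and were followed here by the gene symbols that the platform's annotation gives to probe sets. Of the 5 genes, 3 had a probe set with that symbol, LOX (Entrez gene 280841), LOXL1 (Entrez gene 281903) and LOXL4 (Entrez gene 281904), each with a single one, among 9155 named genes. LOXL2 and LOXL3 were not analysed here. RNA came from chondrocytes of the growth plate of the distal metacarpus, taken from male dairy cattle under 10 months of age. After 4 hours in Collagenase P the freed cells were parted by density, the lightest fraction being called the hypertrophic zone (HZ) and the heaviest the reserve zone (RZ). No treatment or genotype is named in the labels. Each of 12 one-colour arrays held 1 fraction, 6 of HZ and 6 of RZ in pairs numbered 1 to 6, which the design text calls independent. Whether a pair came from 1 animal, or a fraction from pooled animals, is not stated.

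Lysyl oxidases are secreted amine oxidases that need copper. They turn lysine and hydroxylysine side chains of collagen and elastin into aldehydes, which then form the covalent cross-links that make fibres stiff and hard to dissolve. LOX and LOXL1 are made with a propeptide that a procollagen proteinase removes, whereas LOXL2, LOXL3 and LOXL4 carry scavenger receptor domains in front of the shared catalytic domain. In the growth plate, cross-linked collagen holds the cartilage together while hypertrophic cells enlarge and their matrix mineralises.

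LOX and LOXL4 transcripts were higher in HZ than in RZ, LOX by 9.08-fold and LOXL4 by 1.64-fold, each in 6 of 6 pairs. LOXL1 was dim in both zones and did not pass the test. Thus 2 of the 3 measured members rose and 0 fell, where 3.26% of all 24016 probe sets rose and 2.96% fell (6.22% in either direction; limma with the pair as a block, Benjamini-Hochberg adjusted p under 0.05 over all probe sets). A signal higher in HZ in all 6 pairs was found in 6.85% of probe sets. Values are signals recovered from the deposited ratios, in arbitrary units that can be compared between arrays but not between probe sets. Differences and folds are taken on the scale of log2(signal + 16), so a fold is not the plain ratio of the signals. In RNA from whole fractions, a change in the number of cells that make a transcript and a change in RNA per cell cannot be told apart.

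LOX is the enzyme that gave the family its name and acts on fibrillar collagen and elastin. Its signal in RZ ran from 303 to 1077 with a median of 599, and in HZ from 2709 to 7759 with a median of 5925. The zones did not overlap, and the lowest HZ array stood above the highest RZ array. Such a gap with HZ on top was found in 1.68% of all probe sets, and a gap either way in 2.89%. Mean signal was 594 ± 286 in RZ against 5484 ± 2279 in HZ (SD, n = 6), a log2 difference of 3.18 ± 0.27 (SE, limma adjusted p = 0.000708). The exact two-sided sign-flip test over the 6 pairs gave p = 0.031, the smallest it can give. Only 3 of 24016 probe sets had a larger rise, one of NT5DC1 (3.87) and 2 unnamed ones (4.35 and 3.23).

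The size of the LOX rise varied between pairs. It was 21.0-fold in pair 1, from 303 to 6699.85, and 13.3-fold in pair 6, from 562 to 7684. In pairs 3, 4 and 5 it was 7.93-fold, 8.98-fold and 7.11-fold. The smallest was that of pair 2, at 3.94-fold, from 676 to 2709. The arrays HZ-2 and HZ-4 were the 2 lowest of the zone, at 2709 and 2903, and the other HZ arrays were at 5151 or more. RZ-5 had the highest LOX signal of its zone, at 1077, and its partner HZ-5 the highest of HZ, at 7759.

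**Figure D1:**
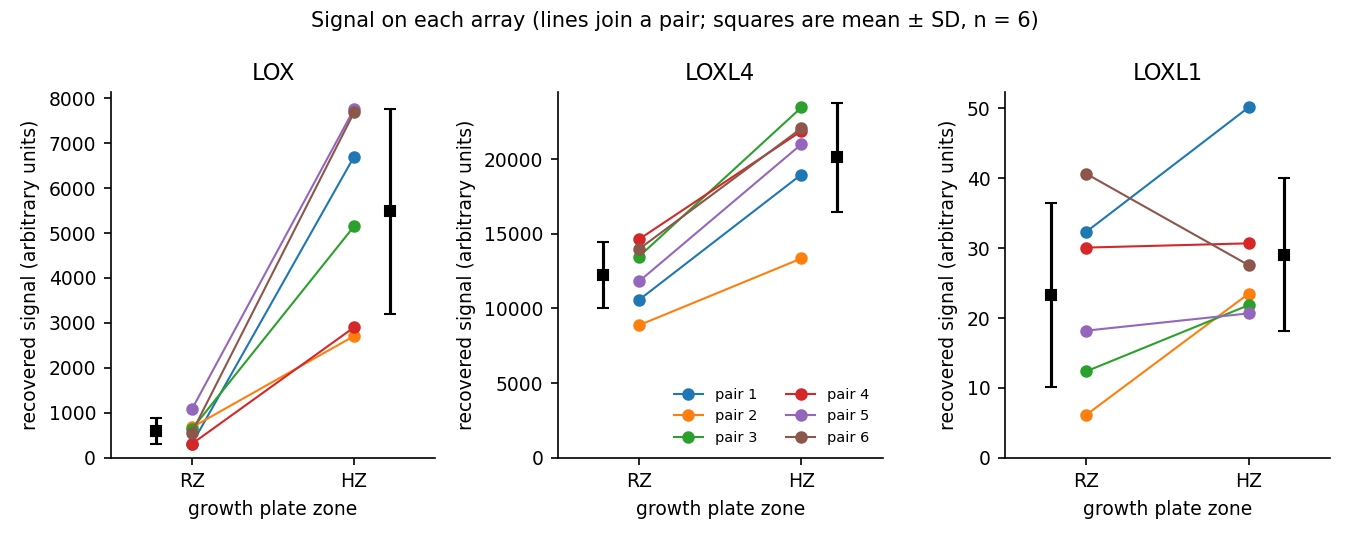
Recovered signal of LOX, LOXL4 and LOXL1 (vertical axes from 0, arbitrary units, not comparable between panels) on each of the 12 arrays by zone, with lines joining the arrays of a pair and squares with bars giving mean ± SD (n = 6). Every LOX and LOXL4 line climbs from RZ to HZ, while the LOXL1 line of pair 6 falls.

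LOXL4, a member with scavenger receptor domains, was bright in both zones. Its probe set ranked 57 of 24016 by mean log2 signal over all arrays. In RZ the signal ran from 8879.95 to 14634 with a median of 12647, and in HZ from 13346 to 23456 with a median of 21434. The zones overlapped through a single HZ array: HZ-2, at 13346, lay within the RZ range and the other 5 HZ arrays lay above every RZ array. Mean signal was 12227 ± 2214 in RZ against 20116 ± 3632 in HZ (SD, n = 6), with a log2 difference of 0.72 ± 0.13 (SE, limma adjusted p = 0.0154; exact sign-flip p = 0.031).

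The LOXL4 rise was nearly the same from pair to pair. It was 1.79-fold in pair 1, 1.78-fold in pair 5 and 1.74-fold in pair 3, and 1.58-fold and 1.49-fold in pairs 6 and 4, with pair 2 between these at 8879.95 in RZ and 13346 in HZ. The SD of the 6 pair differences on the log2 scale was 0.12 for LOXL4, against 0.82 for LOX. Pair 2 was the lowest pair for LOXL4 in both zones. Few probe sets this bright passed the test: 2 of the 100 brightest did, LOXL4 among them. The call was lost without pair 1 (0.69, adjusted p = 0.0553) or pair 5 (0.69, adjusted p = 0.0592) and held without each of the other 4.

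LOXL1, which acts in elastic fibre assembly, gave a signal between 6.15 and 40.6 in RZ and between 20.7 and 50.2 in HZ. Its mean level stood at percentile 23.7 of all probe sets, where the added 16 shrinks differences. The zones overlapped widely, with 1 HZ array (HZ-1, at 50.2) above all of RZ. Mean signal was 23.3 ± 13.2 in RZ against 29.1 ± 10.98 in HZ (SD, n = 6), a log2 difference of 0.24 ± 0.18 (SE, limma adjusted p = 0.484). HZ was higher in 5 of 6 pairs and lower in pair 6, from 40.6 in RZ to 27.6 in HZ (exact sign-flip p = 0.156). The largest rise was 1.78-fold after 16 was added, in pair 2, where the signal went from 6.15 in RZ to 23.5 in HZ. With 1 added in place of 16 the difference was 0.47 (adjusted p = 0.423). This does not show that its transcript was the same in both zones.

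**Figure D2:**
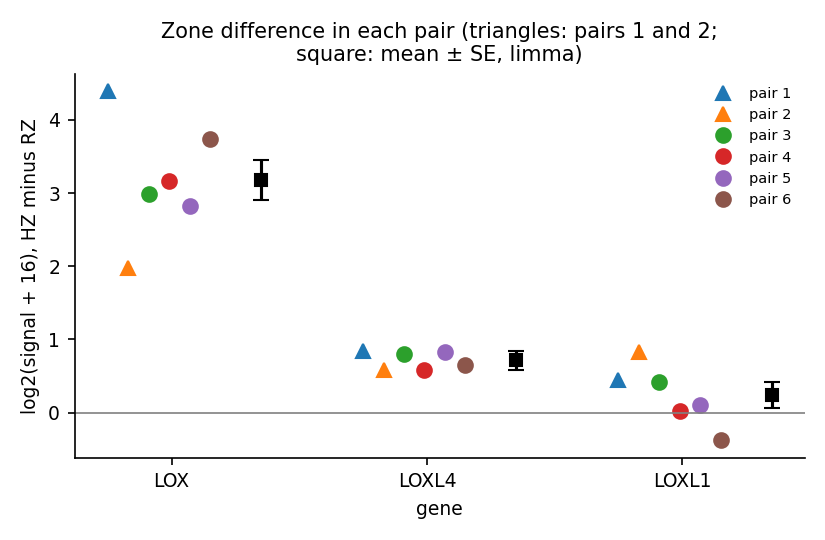
Difference of log2(signal + 16), HZ minus RZ, in each pair for the 3 measured genes (triangles, pairs 1 and 2; circles, pairs 3 to 6), with squares giving the mean and its SE from limma. LOX spans 1.98 to 4.39, LOXL4 stays between 0.58 and 0.84, and LOXL1 lies on both sides of 0.

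Whether the members differed from each other in their response was tested on the pair differences, for the 3 possible gene pairs. The LOX difference exceeded that of LOXL4 in 6 of 6 pairs, by a mean of 2.47 ± 0.32 on the log2 scale (SE, n = 6; exact sign-flip test, two-sided p = 0.031, 0.0469 after Benjamini-Hochberg adjustment over the 3 comparisons). LOX likewise exceeded LOXL1 in 6 of 6 pairs, by 2.94 ± 0.44 (SE, n = 6; exact p = 0.031, adjusted 0.0469). LOXL4 exceeded LOXL1 in 5 of 6 pairs, by 0.48 ± 0.18 (SE, n = 6; exact p = 0.0625, adjusted 0.0625), which did not pass. With 1 added in place of 16 it was 0.25 (adjusted exact p = 0.406), after quantile normalization 0.39 (0.125) and with 64 added 0.61 (0.031). The 3 probe sets lie at different heights of the signal range, and how far that bears on these differences was not tested.

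**Figure D3:**
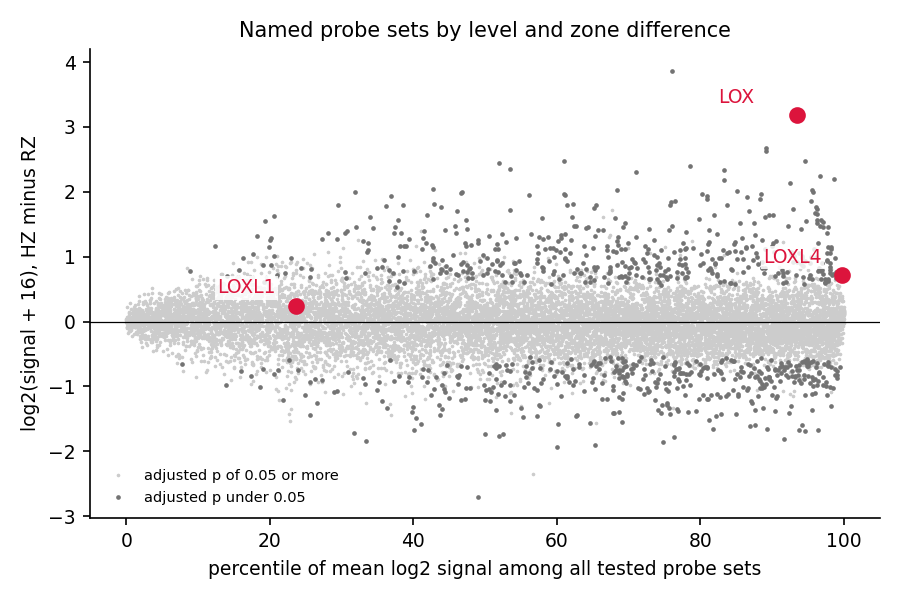
Zone difference (HZ minus RZ, log2(signal + 16)) of every probe set with a single gene symbol against the percentile of its mean level among all tested probe sets, with dark points for those of adjusted p under 0.05 and red points for the lysyl oxidases. LOX stands near the top of all differences, LOXL4 at the bright end with a modest rise, and LOXL1 among dim probe sets with small differences.

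The arrays of pairs 1 and 2 stood apart from those of pairs 3 to 6 in the smallest step between deposited ratios (0.0237 to 0.0318 against 0.00884 to 0.0110), although no label separates them. The mean LOX difference was 3.19 in pairs 1 and 2, which held the largest and the smallest of all pairs (4.39 and 1.98), and 3.18 in pairs 3 to 6. LOXL4 gave 0.71 and 0.72, and LOXL1 0.64 and 0.04. The difference between the sets was 0.01 ± 0.61 for LOX, -0.00177 ± 0.307 for LOXL4 and 0.60 ± 0.35 for LOXL1 (SE), and none of the 3 passed by limma, where 0.00833% of all probe sets passed that test. RNA quality, read from control probes of actin as the log2 of 3′ over 5′ signal, stood at 2.34 ± 0.45 for RZ against 3.03 ± 0.69 for HZ (SD, n = 6). The HZ array had the greater ratio in 5 pairs (exact sign-flip p = 0.0625), and what part this had in the differences was not tested. The actin ratio differed most in pair 1 (1.55), the pair with the largest LOX rise, then in pair 4 (1.32). It differed least in pair 2 (-0.04), the pair with the smallest LOX rise, but by only 0.09 in pair 6, the pair with the next largest. For GAPDH the ratio was higher in HZ in 5 of 6 pairs (exact p = 0.125), most in pairs 3 and 4, by 1.27 and 0.87. Without pair 1 LOX rose by 2.94 (limma adjusted p = 0.00273). Without pairs 3 and 4 LOX rose by 3.23 (limma adjusted p = 0.0410), and LOXL4 gave 0.73 (adjusted p = 0.0793).

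Markers of the zones and of other cells give the setting of these differences. All 5 measured chondrocyte markers, COL2A1, ACAN, COL9A1, COL11A2 and HAPLN1, lay above the median level of all probe sets, and none passed. Of 9 hypertrophic markers, MMP13, IHH, MEF2C, PTH1R and ALPL rose, and of 6 reserve zone markers, SFRP5, APOE, CLU and PTHLH fell. Without the pair block 2 of the 9 and 1 of the 6 passed, and without pairs 3 and 4, 1 and 0 by limma. IBSP, of the hypertrophic list, gave 0.14 at its brightest probe set and rose by 2.20 at the other (adjusted p = 0.00125). COL10A1, the collagen that marks hypertrophy, gave 0.11 ± 0.16 (SE, adjusted p = 0.755). Its only probe set was bright, with means of 21620 in HZ and 20147 in RZ, and only 2 of the 100 brightest probe sets passed. This does not show that its transcript was the same in both zones.

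Osteoblasts and fibroblasts also make lysyl oxidases. Of 4 measured osteoblast markers, DMP1 rose, in 5 of 6 pairs (limma adjusted p = 0.0417). The DMP1 call was lost with 1 added, on the deposited ratios, without pairs 3 and 4, and with any single pair but pair 2 left out. BGLAP, COL1A1 and COL1A2 stood at -0.99 to -1.12 without passing, and the other probe set of COL1A1 gave 0.07. The summed signal of the 4 markers was 1341 to 4803 in HZ and 1466 to 17902 in RZ. Of 8 fibroblast markers, PDGFRA fell by 1.01 on the log2 scale (its other probe sets gave 0.09 to 0.14) and 7 did not pass, with sums of 12305 to 16887 in HZ and 14924 to 22274 in RZ. Such sums are carried by the brightest probe sets, such as LUM among the fibroblast markers (a mean of 10025 in HZ), and are no measure of a share of cells.

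Most members rose in the macrophage and osteoclast lists. Of 7 macrophage markers, CSF1R, C1QA, C1QB, C1QC and AIF1 rose, with sums of 1374 to 3039 in HZ and 978 to 2210 in RZ, CD14 stood at -0.81 and fell by 1.02 at its other probe set (adjusted p = 0.0254), and without the pair block 0 of the 7 passed by limma. Both measured osteoclast markers, ACP5 and CTSK, rose, with sums of 7099 to 9792 and 2262 to 5404. The other probe sets of ACP5 gave 0.49 and 0.79 without passing. Only 1 of the 2 osteoclast markers passed without the pair block, with 1 added, on the deposited ratios, and without pair 1, 3, 4 or 5. Of 4 smooth muscle or pericyte markers, DES rose by 1.81, with sums of 261 to 986 and 170 to 309. Among 6 endothelial markers PECAM1 fell, with sums of 248 to 571 and 499.99 to 759. CATHL1 was the 1 of 6 granulocyte markers to fall, with sums of 279.5 to 2203 and 468 to 10103. CD2 and NKG7 fell among 4 markers of T or NK cells, with sums of 146 to 279 and 226 to 543. The other probe sets of CD2 gave 0.13 and 0.21 and that of NKG7 gave 0.78, and none of these passed. All 4 erythroid markers were dim, ALAS2 lowest at a mean of 2.91 and 2.77, and none passed, with sums of 52.5 to 190.2 and 116 to 255. Without pairs 3 and 4, 1 macrophage and 1 smooth muscle or pericyte marker passed and 0 of the other lists in this paragraph by limma. The part of these cells in the LOX and LOXL4 values was not tested.

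The genes that prepare collagen for cross-linking mostly did not share the rise. Of 14 measured hydroxylases and chaperones of collagen, 1 rose, 3 fell and 10 did not pass, with a median log2 difference of -0.35, where the median of all probe sets was -0.01 and 7.73% of named genes passed in either direction. P3H2, a prolyl 3-hydroxylase, rose from 2883 ± 680.05 to 5551 ± 1529 (SD, n = 6), by 0.93 ± 0.15 (SE, adjusted p = 0.00997). SERPINH1, the chaperone of newly made procollagen, fell by 1.11 on the log2 scale, the prolyl 4-hydroxylase subunit P4HA3 by 0.93 and the prolyl 3-hydroxylase P3H1 by 0.82. The bright probe sets of PPIB and P4HB gave -0.29 and -0.32. The lysyl hydroxylases PLOD1, PLOD2 and PLOD3, which make the hydroxylysine that lysyl oxidases act on and are named outside the rule, gave -0.20, -0.21 and -0.36, and none passed. Without pairs 3 and 4, 0 of the 14 passed by limma, where 139 of all 24016 probe sets did.

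Among 9 measured procollagen proteinases and activators of lysyl oxidases, 0 rose, 1 fell and 8 did not pass (median -0.03). The one that fell was EFEMP2, fibulin-4, which brings LOX to elastin, from 1782 ± 789 in RZ to 1015 ± 480.5 in HZ (SD, n = 6), by 0.79 on the log2 scale (adjusted p = 0.0339), lower in HZ in every pair. It was lost without the pair block, with 1 added, on the deposited ratios, in pairs 3 to 6 alone, without pairs 3 and 4, and without pair 1, 4, 5 or 6. FN1 and THBS1, matrix glycoproteins that bind collagen-processing enzymes, gave 0.11 and 0.13. The brightest FN1 probe set had means of 21880 in HZ and 20475 in RZ, and only 2 of the 100 brightest of all passed. The proteinase BMP1, which cuts the LOX propeptide, was not analysed here. Of 4 transglutaminases, enzymes that cross-link matrix proteins by another reaction, TGM2 fell by 0.89 (adjusted p = 0.0174), a call lost in the same settings except without pair 6. F13A1 gave 0.43 ± 0.14 at its brightest probe set (SE, adjusted p = 0.110), and 0.59 and 0.71 at its other 2 probe sets, of which 1 passed (adjusted p = 0.0345).

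None of 9 fibrillar collagens passed at the brightest probe set (median 0.11), with COL2A1, the main collagen of cartilage, at 0.15 ± 0.19 and COL11A1 at 0.17 ± 0.15 (SE). Of the 6 other probe sets of COL11A1, 1 passed (smallest adjusted p = 0.0189), and they ran from 0.13 to 0.76. The brightest probe sets of COL2A1 and COL11A1 had means of 25060 and 20174 in HZ, and only 2 of the 100 brightest of all passed. COL1A1 gave -1.05 (0.07 at its other probe set) and COL1A2 -1.12 (adjusted p = 0.0515), the latter higher in HZ in 0 of 6 pairs. These values do not show that fibrillar collagens were the same in both zones. None of 4 network collagens passed either, COL4A1 at -0.40 and COL10A1 at 0.11, but the other probe set of COL4A1 fell by 0.76 (adjusted p = 0.0293). Of 9 elastic fibre proteins, 3 fell, 0 rose and 6 did not pass, with a median of -0.48. FBN1, the microfibril protein, fell by 1.46 (adjusted p = 0.00349), elastin itself (ELN) by 0.80 and EMILIN1 by 0.78. MFAP2 and FBLN1 gave -0.48 and -0.61. For ELN mean signal went from 104 ± 38.0 in RZ down to 54.5 ± 23.4 in HZ (SD, n = 6), lower in HZ in 6 of 6 pairs, and its other probe set gave -0.45 without passing. Without the pair block 1 of the 9 passed.

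None of 9 genes of copper supply passed by limma (median 0.02), with the metallothioneins MT1A and MT2A at 0.02 and -0.25. ATOX1 and CP gave 0.58 and 0.71 (adjusted p = 0.108 and 0.0635), each higher in HZ in 6 of 6 pairs. SCO1, SLC31A1 and COMMD1 gave -0.27, -0.13 and -0.12. After quantile normalization 1 of the 9 rose, as did 1 with dim probe sets left out. Of the other copper amine oxidases, AOC2 rose from 348 ± 93.8 to 845 ± 504 (SD, n = 6), by 1.08 ± 0.27 (SE, adjusted p = 0.0461), in 5 of 6 pairs, and AOC1 and AOC3 gave 0.58 and -0.57. The AOC2 call was lost with 1 added, on the deposited ratios, after quantile normalization, without the pair block, without pairs 3 and 4, and with any single pair but pair 2 left out.

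LOX is known as a target of hypoxia-inducible factors and of TGF-beta. Of 6 hypoxia factors, EPAS1 and EGLN1 rose and 4 did not pass (median 0.14). EPAS1, the HIF-2 alpha subunit, went from 1379 ± 169 to 4509 ± 945 (SD, n = 6), by 1.68 ± 0.17 (SE, adjusted p = 0.00149), and its second probe set rose by 1.17. EGLN1, the hydroxylase that marks HIF subunits for decay in oxygen, rose by 1.08, while HIF1A and EGLN2 gave 0.19 and 0.08. Of 9 TGF-beta factors, the mediator SMAD3 rose by 1.41 (0.15 at its other probe set), the ligand TGFB1 fell by 0.71 and 7 did not pass, with CCN2 at 0.13 and TGFB2 at -0.49. The CCN2 probe set was bright, with means of 21891 in HZ and 20236 in RZ, and only 2 of the 100 brightest passed. SNAI1, a repressor that LOXL2 is known to stabilise, gave -0.15 and CDH1, E-cadherin, -0.54, and neither passed.

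**Figure D4:**
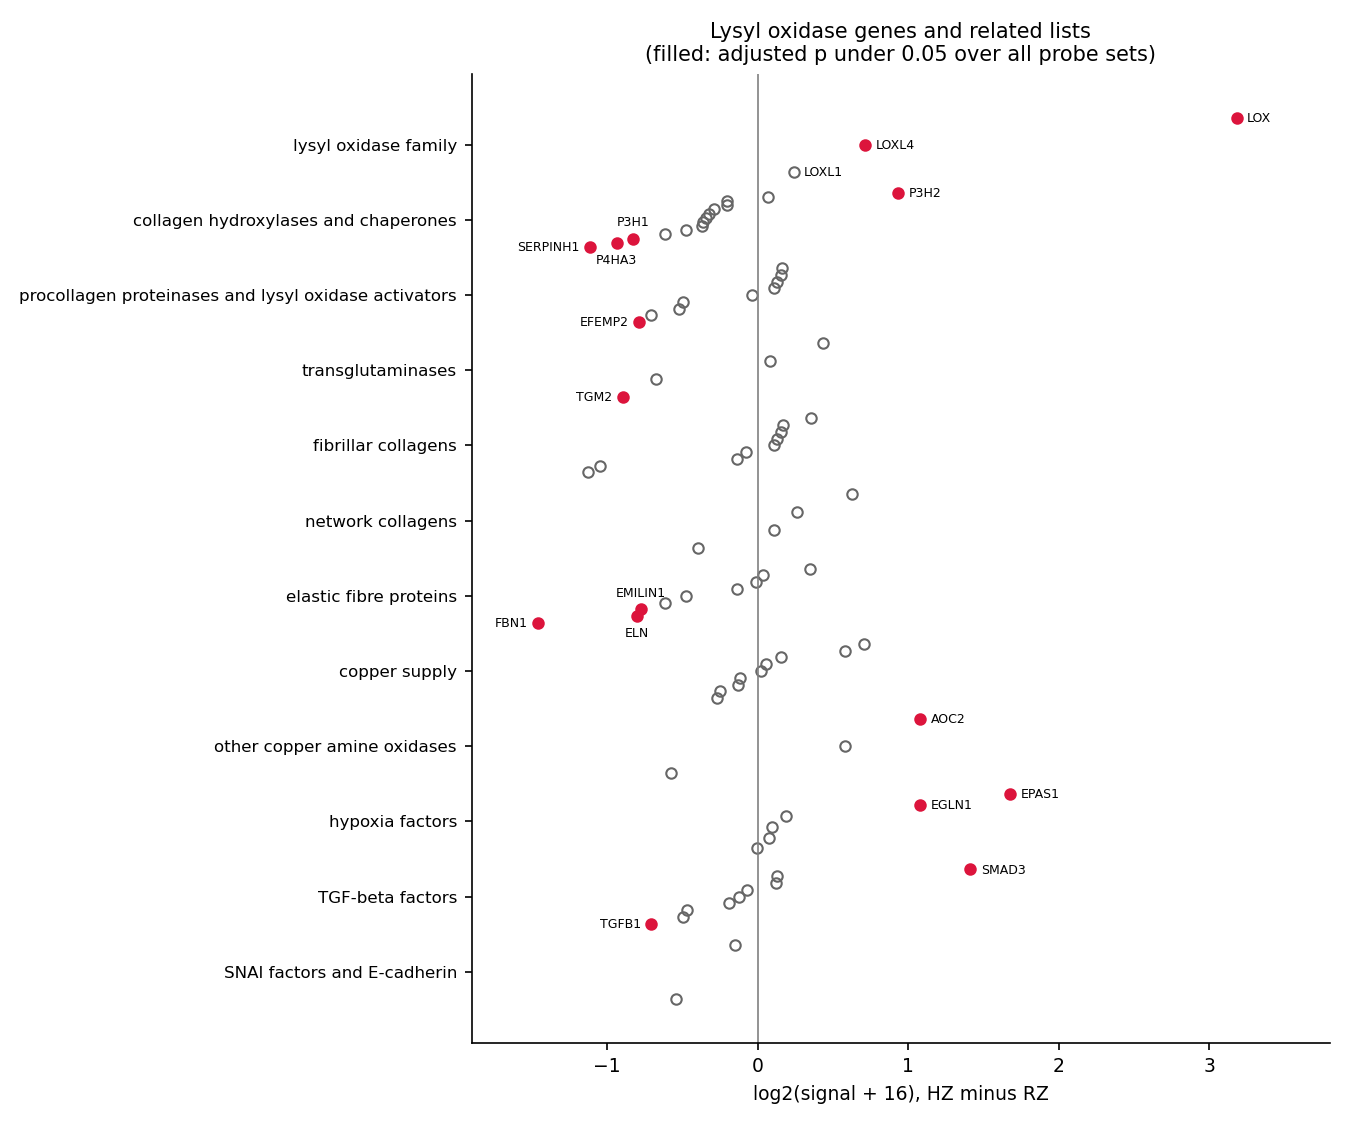
Zone differences (HZ minus RZ, log2(signal + 16)) of the measured genes in the lysyl oxidase family and 11 related lists, 1 point per gene at its brightest probe set, filled where the adjusted p was under 0.05. LOX lies beyond every other listed gene, and the filled points of the elastic fibre list are all below 0.

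Among 9152 other named genes, those whose log2 signal ran most like that of LOX over the 12 arrays were NT5DC1 (Pearson r = 0.976, Spearman rho = 0.916), EPAS1 (0.967 and 0.909), the actin-binding tropomyosin TPM1 (0.966 and 0.972), the co-chaperone DNAJA4 (0.959 and 0.874) and the phosphatase PTPN3 (0.958 and 0.951). All 5 were higher in HZ, by 0.90 to 3.87, and the zone difference is part of these correlations. Over deviations from the zone means the r was 0.82, 0.72, 0.75, 0.67 and 0.88. For LOXL4 the closest were VMP1 (0.958 and 0.944), SH3BP4 (0.955 and 0.902), CCNI (0.947 and 0.972), EFHD1 (0.942 and 0.923) and SH3RF1 (0.940 and 0.888), with 0.90, 0.87, 0.85, 0.88 and 0.82 over deviations. VMP1 and EFHD1 did not pass the zone test (0.37 and 0.52), so the likeness to LOXL4 lay also in its variation within zones. No gene stood on both lists, and these genes are the highest of many compared.

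Genes next to the members on the chromosome were taken by the gene order of the RefSeq table for assembly ARS-UCD2.0. They were chosen after values of these data were known. The 3 nearest measured genes on either side of LOXL1 all lay below 0, some barely (-0.01 for G2E3). Those around LOX did so too except SNX2 (0.37), and those around LOXL4 lay on both sides of 0. Beside LOXL4 lies PYROXD2, with no protein-coding gene between them. It rose from 40.1 ± 24.4 to 275 ± 99.1 (SD, n = 6), by 2.44 ± 0.36 (SE, adjusted p = 0.00724), but by 0.48 at its other probe set. On the other side, CRTAC1 and GOLGA7B gave 0.02 and 0.45, and SFRP5, the third measured gene away, fell by 1.12. Around LOX the nearest measured genes were SNCAIP, which fell by 1.14 (adjusted p = 0.00569), and HSD17B4, at -0.03, with 4 and 5 unmeasured protein-coding genes in between. Around LOXL1, ISLR fell by 1.43 (adjusted p = 0.0129), and PML and GZMB gave -0.56 and -0.44 without passing.

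**Figure D5:**
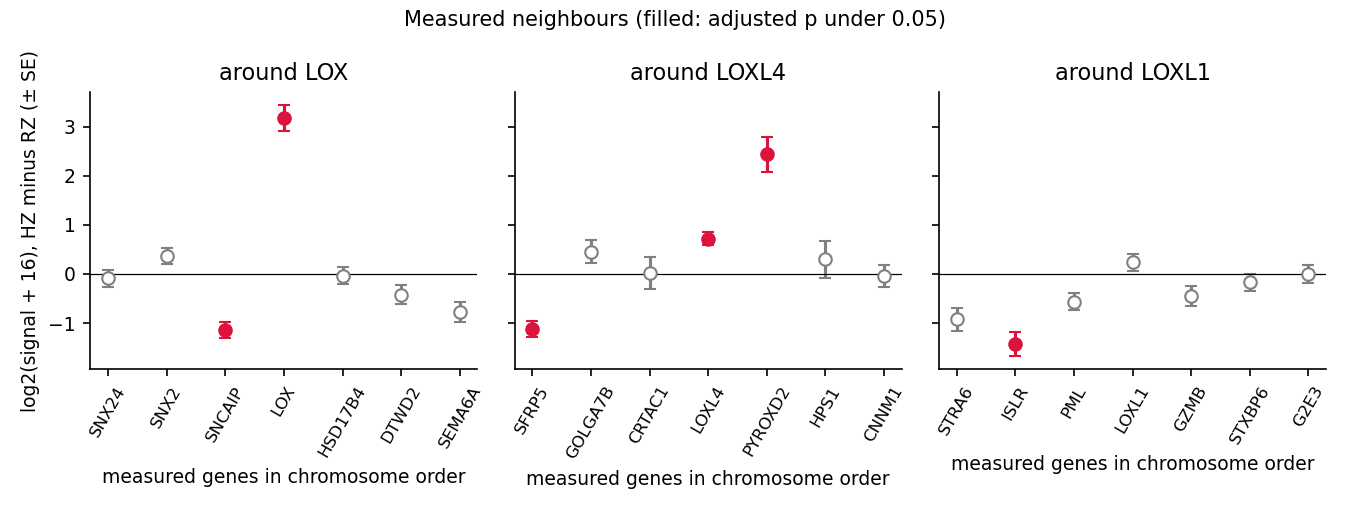
Zone differences (HZ minus RZ, log2(signal + 16), with SE) of LOX, LOXL4 and LOXL1 and of the 3 nearest measured protein-coding genes on either side, in chromosome order and not to distance, filled where the adjusted p was under 0.05. PYROXD2 beside LOXL4 is high while SFRP5, SNCAIP and ISLR are low.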

How the data were processed

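Total RNA was labelled with biotin and measured on 12 one-colour arrays, per the labels' protocols; how probes were summarised and normalized is not given in the sources used here. The deposited values are linear ratios by the authors, of an array's signal over the probe set's median across arrays (for 2227 dim probe sets over 1 fixed value). Ratios lie on whole multiples of a step, which gave back a signal for all 24016 probe sets tested; 112 controls were left out. One step was assumed to be 0.1 signal units on (geometric) average, which no source states and which sets the weight of the added 16. The recovery and the fit were tested on simulated data. There the fit called 50 of 100 known changes of log2 size 1 and 95 of 100 of size 2, with 8 false calls, among 24016 simulated probe sets. Errors were drawn independently, and fewer probe sets were changed there than passed in the real data. These shares therefore need not hold for the real data. A gene that did not pass may still differ between the zones. Array medians of the log2 ratio spanned 0.15 and no further normalization was made.

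The zone difference was fitted in R 4.3.3 by limma 3.58.1 (lmFit and eBayes with pair as a fixed block, Benjamini-Hochberg over 24016 probe sets, threshold 0.05). The planned design allowed for intensities, and recovered signals stood in for them. Same-numbered arrays deviated together (correlations 0.124 to 0.447 over 6 pairs, all above the limit of 0.1), so the numbers in the titles were taken as pairs. For pair 3, the lowest at 0.124, the closest array was not the same-numbered one, so its pairing is less sure. What part the split between sets of pairs had in these correlations was not tested. The block and the sign-flip tests rest on this pairing. The number of arrays limits the precision.

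Symbols came from the platform's annotation, with 13292 probe sets of 1 symbol, 86 of several and 10638 of none; 13263 matched the RefSeq table by Entrez identifier and 0 changed. A gene stands for its probe set of highest mean log2 signal. Named are all member probe sets; of each related list up to 5 genes that passed and the 2 brightest that did not; of marker lists those that passed; and the 5 genes most correlated with LOX and with LOXL4. Other genes were named after their values were seen. Members and lists were chosen with earlier results of these data known. No sequence is printed.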

Additional observations from a re-analysis of the deposited data

How the results depend on the processing

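LOX was higher in HZ in every setting tried, by 3.07 to 3.23 and, with single pairs left out, by 2.94 to 3.42. It passed in all of them except pairs 1 and 2 alone (3.19, adjusted p = 0.301). LOXL4 kept its direction but missed the threshold in pairs 1 and 2 alone (0.71, adjusted p = 0.399), in pairs 3 to 6 alone (0.72, adjusted p = 0.109) and with pairs 3 and 4 left out (0.73, adjusted p = 0.0793). With 1 pair left out it gave 0.69 to 0.74 and passed in 4 of 6 fits. LOXL1 passed in no setting, and the filter on dim probe sets removed it.

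The excess of LOXL4 over LOXL1 passed with 64 added (0.61) and not with 1 added (0.25) or after quantile normalization (0.39). With 1 pair left out, the 3 differences between members were 2.25 to 2.68 (LOX over LOXL4), 2.71 to 3.30 (LOX over LOXL1) and 0.36 to 0.62 (LOXL4 over LOXL1), where the exact test on 5 pairs cannot go below 0.0625.

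Of all probe sets 1494 passed, 782 higher and 712 lower in HZ. Without the replicate block 831 did (505 and 326), with 1 added 583 (368 and 215), on the deposited ratios 478 (315 and 163), in pairs 3 to 6 alone 336 (258 and 78) and with pairs 3 and 4 left out 139 (91 and 48). In pairs 1 and 2 alone limma called 0, with 2931 at an unadjusted p under 0.05. The count was 2137 with 64 added (1017 and 1120), 2214 with dim probe sets left out (1055 and 1159) and 2218 with a variance trend (1051 and 1167), where lower calls outnumbered higher ones, as they did without pair 3 (645 and 895). It was 557 to 1540 with 1 pair left out (625 without pair 1, 632 without pair 4, 557 without pair 5 and 814 without pair 6). Counts of the gene lists under other settings were added after seeing the data. The block changed no call among the 3 members. The test between sets of pairs called 2 probe sets, 0 with 1 added, 1 with 64 added and 1 after quantile normalization. The causes were not tested. LOXL1 stood at percentile 23.7 of the signal levels.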
